A study of Mus musculus with 4 samples.

Results

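The genes described here are 36 genes of glucose transport, glycolysis, lactate and pyruvate handling, and the response to low oxygen. Their levels were read from 4 mouse arrays of leukemic blasts. Members were found by current gene symbol, reached through the Entrez identifier, among the probe sets that the platform annotation pairs with 1 gene. Such a probe set was found for 33 of the 36 members, out of 18194 genes in all, and 28 members were bright enough to be tested among 11615 genes. Gpi1, Eno1 and Bnip3l had none and were not analysed here. Each gene was read on its probe set with the highest mean log2 value over the 4 arrays.

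The blasts were sorted for GFP, a reporter carried by the retrovirus that tagged them, from a murine M7 (megakaryoblastic) leukemia. That leukemia was raised by insertional mutagenesis in fetal progenitors with a mutant Gata1, called Gata1s in the labels. The groups were blasts of spleen and blasts of peripheral blood, with 2 arrays each, and both tissues were taken from each of 2 mice. All 4 samples carry the leukemia designation T6(6), were isolated directly from the animals and received no treatment. The ages and strain of the animals are not given in the sources used here. With 1 leukemia designation and 2 animals, errors describe only these arrays. Each ± is a moderated standard error from limma, which draws a gene's spread between arrays toward that of all tested genes. It can therefore be wider or narrower than the spread of that gene's own arrays.

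Glycolysis converts glucose to pyruvate in the cytosol. Cells that divide fast often send much of that pyruvate to lactate even where oxygen is present. Hypoxia-inducible factors (HIFs) are transcription factors whose alpha subunits are marked for destruction by oxygen-dependent prolyl hydroxylases. When oxygen is scarce they accumulate and raise the transcription of glucose transporters, most glycolytic enzymes, pyruvate dehydrogenase kinases and genes of angiogenesis and mitophagy. MYC raises many of the same glycolytic genes. The spleen and the blood are the sites at which these blasts were collected, and the question of the comparison is how the blasts of the 2 sites differ.

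The 4 arrays had median intensities between 103.7 and 110.6, and the 3' to 5' ratio of the Gapdh control lay between 0.909 and 1.01. Megakaryocyte markers were abundant, with Pf4, the platelet factor of alpha granules, at 8341 and 8680 in spleen, against 7507 and 7767 in blood. Of 9 tested megakaryocyte and platelet markers 8 were higher in spleen in both mice, against 38.5% of all genes. Their median log2 difference was 0.28, and that of Pf4 was 0.16 ± 0.11. The largest were Treml1 at 1.61 ± 0.17 and Gp1bb at 1.06 ± 0.16. Since probe sets differ in brightness, no gene's level is set against another's. Intensities are the authors' deposited linear values, and differences are on the scale log2(value + 16), spleen minus blood, with values below 0 set to 0.

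**Figure D1:**
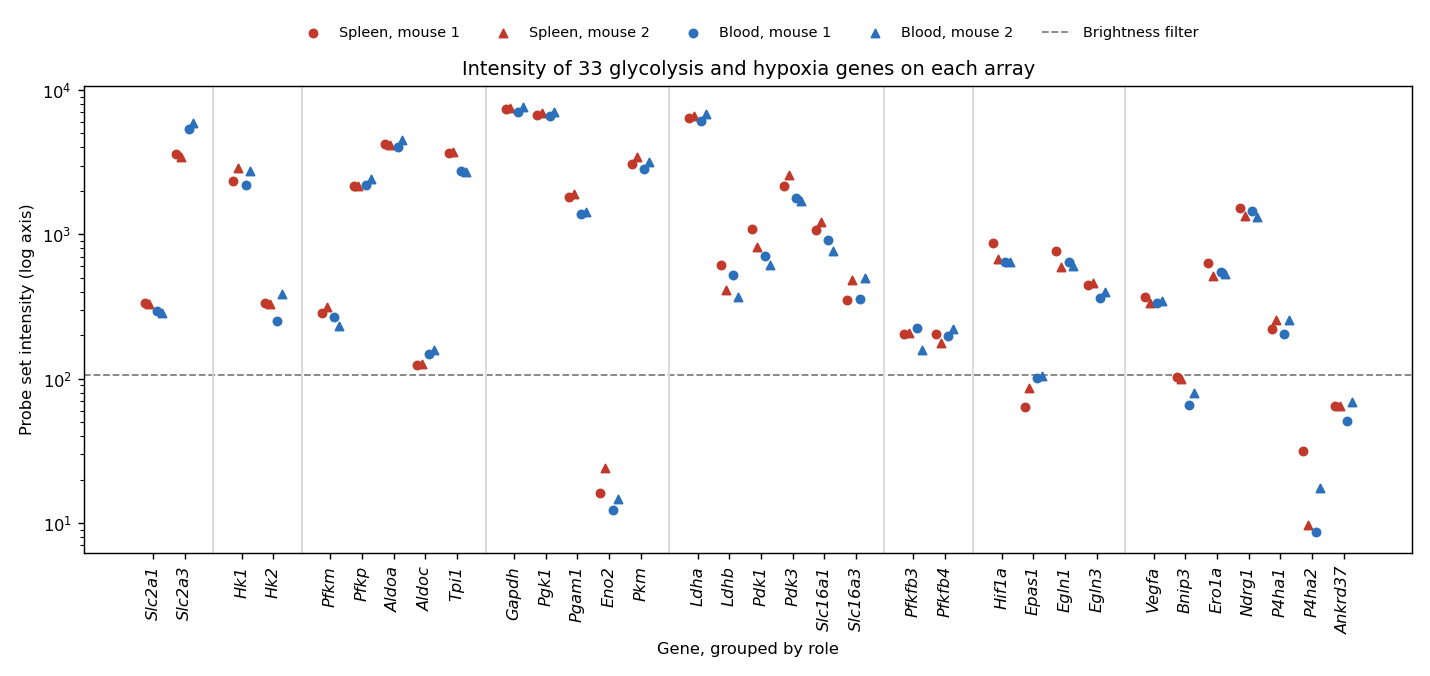
Probe set intensity (log axis) of the 33 measured genes on each array, grouped by role, with spleen in red, blood in blue, mouse 1 as circles and mouse 2 as triangles. Most genes had 4 close values. Slc2a3 lay lower and Tpi1 and Pgam1 higher in both spleen arrays than in both blood arrays, and 5 genes lay under the dashed filter at 106 in their mean.

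Most of these genes had like levels in spleen and blood. The member furthest from 0 was the glucose transporter gene Slc2a3, lower in spleen in both mice. Tpi1, Pgam1, Pdk1, Pdk3 and Slc16a1, of glycolysis and of pyruvate and lactate handling, were higher in spleen in both mice. They are named for an unadjusted p under 0.05 in limma's fit. None of them was called. In limma's fit of all genes, 0 of 28 tested members had an adjusted p under 0.05, where the share called among all 11615 genes was 0%. At an unadjusted p under 0.05, 5 members were higher in spleen, against 8.12% of all genes, and 1 was lower, against 4.3%. The 5 higher members became 3 without blood replicate 1 and 2 without blood replicate 2. In both mice 13 of 28 members were higher in spleen, against 38.5% of all genes, and 4 were lower in both, against 25.1%. Centring the arrays turned these counts into 21 and 2, against 47.2% and 19.6% of all genes, and quantile normalization gave 13 and 7, against 34.3% and 30.6%. The median difference of the members was 0.11 in mouse 1 and 0.0092 in mouse 2, and that of all tested genes was 0.065 in mouse 1 and 0.0065 in mouse 2. At least 0.3 from 0 in both mice were 3 members higher in spleen, Tpi1, Pgam1 and Pdk1, against 5.51% of all genes, and 1 lower, Slc2a3, against 2.52%. Both spleen arrays lay above both blood arrays for 9 members, against 27.5% of all genes, and below them for 3, against 17.6%.

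**Figure D2:**
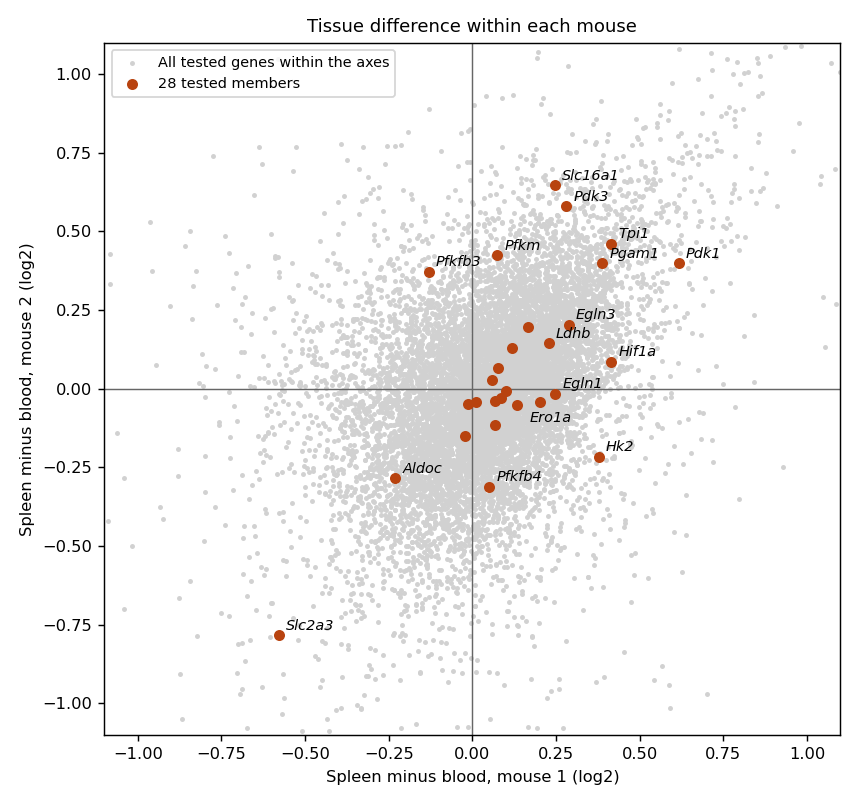
Log2 difference of spleen minus blood in mouse 1 (horizontal) and mouse 2 (vertical) for the 28 tested members (orange) over all tested genes (grey). Slc2a3 stands alone among the members at the lower left with -0.58 and -0.78, and Tpi1, Pgam1, Pdk1, Pdk3 and Slc16a1 lie at the upper right.

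Slc2a3 encodes GLUT3, a high-affinity glucose transporter of neurons, platelets and white blood cells. Its intensity was 3580 and 3410 in spleen of mouse 1 and mouse 2, against 5355 and 5879 in blood of the same mice. Both spleen arrays lay below both blood arrays, and the mean in spleen was 0.622 times that in blood. The log2 difference was -0.68 ± 0.12 (limma's moderated SE, 2 arrays per tissue), with -0.58 in mouse 1 and -0.78 in mouse 2. The adjusted p from limma was 0.15. An intensity trend in limma's prior gave an adjusted p of 0.046, and over the 12 alternatives it ran from 0.046 to 0.706. Of its 4 probe sets 3 were lower in spleen in both mice. The next brightest read 2154 and 1944 in spleen, against 3411 and 3942 in blood. The fourth, which is dim, differed by -0.29 in mouse 1 and 0.03 in mouse 2.

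Slc2a1 encodes GLUT1, the transporter for basal glucose uptake of many cell types and a HIF target. It was slightly higher in spleen, with intensities of 333 and 329 in spleen, against 296 and 285 in blood. The groups did not overlap, but the difference of 0.18 ± 0.11 had an adjusted p of 0.542. In both mice all 3 of its probe sets were higher in spleen, with mean differences from 0.18 to 0.50. The probe set with the highest value of these read 366 and 346 in spleen, against 262 and 233 in blood. The sizes for Slc2a1 therefore depend on the probe set read, and the 2 transporters had opposite signs on their brightest ones.

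Marker lists of other processes and cells moved with tissue beside these genes. Of 11 tested granulocyte markers 8 were lower in spleen in both mice, against 25.1% of all genes. Prtn3 and Ctsg, proteases of immature granulocytes, were higher in both, by 0.63 ± 0.13 and 0.42 ± 0.13. The summed intensity of the 15 measured was 6916 and 3618 in spleen, against 8673 and 19101 in blood. Slc2a3 is also expressed by neutrophils. The median granulocyte difference was -0.21 in mouse 1 and -2.38 in mouse 2, where Slc2a3 had -0.58 and -0.78. Without blood replicate 2, the array with the most granulocyte signal, Slc2a3 differed by -0.61. The blood array left in that comparison, with a granulocyte sum of 8673, still lay above both spleen arrays. None of the 15 markers was at or under 16 on all arrays. Each of 11 tested mitosis genes was above 0 in both animals, against 38.5% of all genes. Their median was 0.78 in mouse 1 and 0.86 in mouse 2. Their summed intensity was 17750 and 19459 in spleen, against 11153 and 11785 in blood. The part of either list, or of the megakaryocyte and platelet markers, in the member differences was not tested. In sorted bulk cells, fewer cells of a type and less RNA per cell cannot be told apart.

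The medians of macrophage and of T and NK cell markers had opposite signs in the mice, above 0 in mouse 1 and below 0 in mouse 2. The summed intensity of 11 macrophage and monocyte markers was 2561 and 1327 in spleen, against 1662 and 3698 in blood, and that of 14 T and NK markers was 9834 and 5411 in spleen, against 7975 and 12036 in blood. Erythroid markers, red cells being wholly dependent on glycolysis, summed to 6309 and 6095 in spleen, against 6865 and 7153 in blood over 7 genes. The sum of 7 B cell markers ran from 891 to 1020.

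Hexokinases trap glucose in the cell as glucose-6-phosphate. Hk1, the housekeeping form, had intensities of 2337 and 2898 in spleen, against 2215 and 2765 in blood. Both arrays of mouse 2 lay above both of mouse 1, and the tissue difference was 0.07 ± 0.17. Its second probe set read 259 and 593 in spleen, against 227 and 291 in blood, a difference of 0.18 in mouse 1 and 0.99 in mouse 2, so the size for Hk1 rests on the probe set. Hk2, the inducible form and a HIF target, had 333 and 331 in spleen, against 252 and 387 in blood. Its 2 blood arrays lay on either side of the spleen arrays, with differences of 0.38 in mouse 1 and -0.22 in mouse 2.

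In upper glycolysis, triose phosphate isomerase stood out. Tpi1, which interconverts the 2 triose phosphates, had intensities of 3685 and 3750 in spleen, against 2763 and 2721 in blood. The arrays of a tissue lay close together and the tissues did not overlap, with a ratio of mean intensities of 1.36. The difference was 0.44 ± 0.11, with 0.41 in mouse 1 and 0.46 in mouse 2 and an adjusted p of 0.253. In both mice all 3 probe sets were higher in spleen, with mean differences from 0.44 to 0.62. Over the 12 alternatives the difference stayed between 0.39 and 0.53.

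The other upper enzymes were nearer to 0. Aldoa, the aldolase that splits fructose-1,6-bisphosphate, had 4222 and 4143 in spleen, against 4030 and 4484 in blood, a difference of -0.02 ± 0.12. The tissues overlapped on this probe set, while 3 of its 5 probe sets were lower in spleen in both mice, with mean differences down to -0.18. Pfkp, the platelet form of phosphofructokinase, had 2156 and 2171 in spleen, against 2190 and 2409 in blood. Its probe sets disagreed, since 2 of 3 were lower and 1 was higher in spleen in both mice. Pfkm, the muscle form, differed by 0.25 ± 0.13, with 285 and 316 in spleen, against 269 and 231 in blood. The difference was 0.42 in mouse 2 and 0.07 in mouse 1, and without blood replicate 2 the tissue difference was 0.15. Aldoc, an aldolase best known from brain and a HIF target, was dim, with 124 and 127 in spleen, against 149 and 158 in blood. Its difference of -0.26 ± 0.11 had an adjusted p of 0.423, and its tissues did not overlap.

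In lower glycolysis Pgam1, phosphoglycerate mutase, was the tested member whose tissues did not overlap. Its intensity was 1810 and 1893 in spleen, against 1379 and 1432 in blood. The ratio of means was 1.32 and the difference 0.39 ± 0.11, with 0.39 in mouse 1 and 0.40 in mouse 2 and an adjusted p of 0.305. It has 1 probe set here. Pkm, pyruvate kinase, had 3082 and 3463 in spleen, against 2836 and 3168 in blood. It was higher in spleen in both mice by 0.12 and 0.13, less than the distance between the mice within a tissue.

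The most used reference enzymes were flat on their brightest probe sets. Gapdh, which oxidises glyceraldehyde-3-phosphate, had 7432 and 7473 in spleen, against 7002 and 7629 in blood, and a difference of 0.03 ± 0.11. It was read on the array's Gapdh control probe sets, the ones that the annotation pairs with Gapdh alone, and all 3 lay within 0.05 of 0 in their mean difference. Pgk1, which makes the first ATP of the pathway, had 6663 and 6880 in spleen, against 6617 and 7083 in blood, a difference of -0.02 ± 0.11. Of its 3 probe sets 1 was higher and 1 lower in spleen in both mice, with mean differences from -0.02 to 0.15. Eno2, the neuronal enolase, was near background, with intensities from 12.3 to 23.9 over the 4 arrays. So Tpi1 and Pgam1 lay apart from Aldoa, Gapdh and Pgk1, enzymes of the same pathway, although no test between these genes was made.

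Genes of pyruvate and lactate handling had the highest median of any role, 0.31 over 6 tested members. Pdk1 and Pdk3 encode kinases that switch off pyruvate dehydrogenase and so hold pyruvate back from the mitochondria, and Pdk1 is a HIF target. Pdk1 had intensities of 1097 and 816 in spleen, against 710 and 615 in blood. Both mice had more in spleen, by 0.62 and 0.40, and the difference was 0.51 ± 0.17 with an adjusted p of 0.349. Of its 4 probe sets 3 were higher in spleen in both mice, and the dimmest had a mean difference of 0.02. Without spleen replicate 1 the difference of Pdk1 was 0.30, and without spleen replicate 2 it was 0.72.

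Pdk3 had 2163 and 2574 in spleen, against 1779 and 1717 in blood, a difference of 0.43 ± 0.13 with an adjusted p of 0.317. Its tissues did not overlap, with 0.28 in mouse 1 and 0.58 in mouse 2. Slc16a1 encodes MCT1, a carrier of lactate and pyruvate across the cell membrane. It had 1081 and 1210 in spleen, against 908 and 767 in blood. Mouse 2 showed more of this difference, with 0.65, than mouse 1, with 0.25, and over both it was 0.45 ± 0.14 with an adjusted p of 0.317. Its second probe set was near background and gave no usable value.

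Ldha and the second carrier were near 0, and the sign for Ldhb depended on the probe set. Ldha, the subunit that favours lactate and a HIF and MYC target, had 6423 and 6591 in spleen, against 6130 and 6772 in blood, a difference of 0.01 ± 0.12. Slc16a3, which encodes MCT4, the lactate exporter of strongly glycolytic cells and a HIF target, had 354 and 483 in spleen, against 357 and 500 in blood. Here the mice were apart and the tissues were not, with a tissue difference of -0.03 ± 0.21. On its brightest probe set Ldhb had 611 and 411 in spleen, against 519 and 370 in blood. It was higher in spleen there by 0.23 in mouse 1 and 0.14 in mouse 2, with a tissue difference of 0.19 ± 0.24. Of its 4 probe sets 1 was higher in both mice. The others were higher in spleen in mouse 1 and lower in mouse 2, with mean differences down to -0.20.

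**Figure D3:**
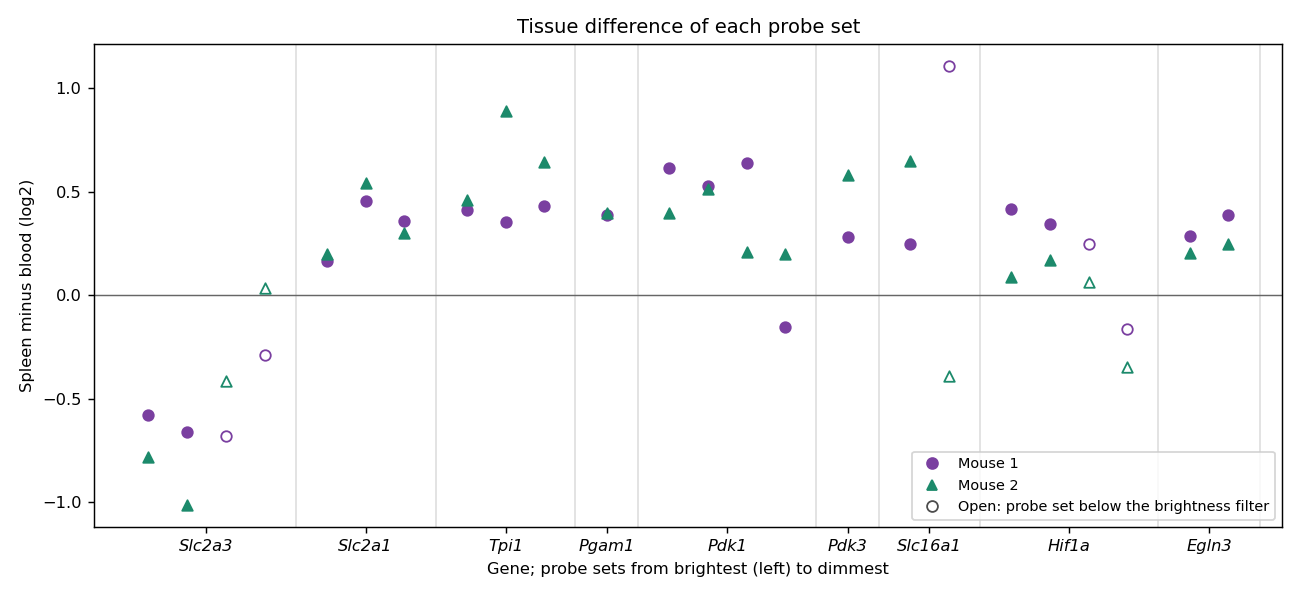
Log2 difference of spleen minus blood for every probe set of 9 members, in mouse 1 (circles) and mouse 2 (triangles), from the brightest probe set on the left to the dimmest. Filled symbols of Slc2a3 all lie below 0 and those of Slc2a1, Tpi1, Pgam1, Pdk3, Slc16a1, Hif1a and Egln3 above 0, while the dimmest Pdk1 probe set and the open symbols, below the brightness filter, scatter.

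Pfkfb3 and Pfkfb4 make and break down fructose-2,6-bisphosphate, the main activator of phosphofructokinase, and both are HIF targets. Pfkfb4 had 204 and 176 in spleen, against 196 and 222 in blood. Pfkfb3 had 203 and 209 in spleen, against 224 and 158 in blood. Both genes went opposite ways in the mice, with tissue differences of -0.13 and 0.37 for Pfkfb3 and of 0.05 and -0.31 for Pfkfb4 in mouse 1 and mouse 2.

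The regulators of the oxygen response were expressed, with Hif1a and 2 of the prolyl hydroxylases well above the filter. Hif1a, the widely expressed alpha subunit, had 866 and 679 in spleen, against 645 and 639 in blood. The tissues did not overlap, but mouse 1 carried most of the difference, with 0.42 against 0.09 in mouse 2. Over both mice it was 0.25 ± 0.15 with an adjusted p of 0.530. The Hif1a transcript does not report the protein, whose amount is set mainly by degradation. Of its 4 probe sets 3 were higher and 1, dim, was lower in spleen in both mice. Epas1, which encodes HIF-2 alpha, was under the filter and not tested, with 63.9 and 85.8 in spleen, against 102 and 104 in blood.

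Egln1 and Egln3 encode prolyl hydroxylases that mark HIF alpha subunits for destruction, and Egln3 is itself a HIF target. Egln3 had 447 and 460 in spleen, against 363 and 397 in blood. Both of its probe sets were higher in spleen in both mice, and the difference was 0.25 ± 0.12 with an adjusted p of 0.444. Egln1 had 769 and 596 in spleen, against 645 and 602 in blood, with the sole high value in spleen of mouse 1. Its difference was 0.12 ± 0.15.

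The 4 tested HIF targets outside glycolysis were each within 0.08 of 0 on their brightest probe sets. Ndrg1, a stress-responsive gene also induced on differentiation, had 1511 and 1338 in spleen, against 1452 and 1314 in blood, a difference of 0.04 ± 0.13. Vegfa, the growth factor of blood vessels, had 369 and 334 in spleen, against 335 and 347 in blood. Ero1a, the oxidase of protein folding in the endoplasmic reticulum, had 638 and 515 in spleen, against 552 and 531 in blood. On these probe sets the tissues overlapped for these 3 genes and for P4ha1, a collagen prolyl hydroxylase subunit, which differed by 0.05 ± 0.15. Other probe sets gave larger values. Of 3 for Ero1a 1 was higher in spleen in both mice, with mean differences from -0.03 to 0.29. Of 5 for Ndrg1 3 were higher in both mice, with mean differences from 0.04 to 0.23.

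The other targets were under the brightness filter and were not tested. Bnip3, a mitophagy receptor, had 103 and 98.9 in spleen, against 65.5 and 79.2 in blood, higher in spleen by 0.55 in mouse 1 and 0.27 in mouse 2. Ankrd37, a strongly HIF-responsive gene, had 64.2 and 65.0 in spleen, against 51.0 and 68.7 in blood. P4ha2 was near background, from 8.67 to 31.4. Log2 differences of such dim probe sets depend on the offset.

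The promoters of the 5 members higher in spleen at an unadjusted p under 0.05 in limma are shown. These genes were picked by that threshold on these same values. The promoter of Ldha, a flat gene chosen with its values seen, is printed for comparison. RefSeq's table for GRCm38.p6 held promoters of 30 of the 33 measured members, each 250 bases before to 50 after an annotated start. It held none for Slc2a3, Epas1 and Ndrg1, so the member furthest from 0 has no promoter here. The most upstream start is shown where a gene has several. Capitals mark the core of the hypoxia response element on either strand. The core was searched in its form with A as first base, ACGTG, whose other strand reads CACGT. It was also searched in its form with G as first base, GCGTG, whose other strand reads CACGC. The E-box CACGTG, bound by MYC among others, holds the core with A on both strands, and such matches overlap.
Tpi1, chr6:124814109-124814408, minus strand: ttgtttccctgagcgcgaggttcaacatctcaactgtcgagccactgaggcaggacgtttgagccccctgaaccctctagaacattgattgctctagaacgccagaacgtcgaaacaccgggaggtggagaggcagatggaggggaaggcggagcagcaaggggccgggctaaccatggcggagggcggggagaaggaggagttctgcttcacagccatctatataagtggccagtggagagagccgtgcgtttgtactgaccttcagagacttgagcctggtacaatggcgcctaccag
Pgam1, chr19:41911621-41911920, plus strand: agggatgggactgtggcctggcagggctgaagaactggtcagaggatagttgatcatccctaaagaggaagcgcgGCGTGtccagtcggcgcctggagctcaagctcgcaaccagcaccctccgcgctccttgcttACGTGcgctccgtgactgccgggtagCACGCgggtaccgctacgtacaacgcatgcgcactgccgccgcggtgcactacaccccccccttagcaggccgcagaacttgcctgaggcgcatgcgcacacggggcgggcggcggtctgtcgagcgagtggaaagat
Pdk1, chr2:71872974-71873273, plus strand: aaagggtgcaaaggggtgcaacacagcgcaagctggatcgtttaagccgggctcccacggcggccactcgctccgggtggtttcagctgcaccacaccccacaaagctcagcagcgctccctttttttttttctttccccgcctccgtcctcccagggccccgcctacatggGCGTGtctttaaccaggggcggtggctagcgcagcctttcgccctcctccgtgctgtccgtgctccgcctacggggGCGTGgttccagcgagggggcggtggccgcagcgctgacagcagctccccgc
Pdk3, chrX:93832101-93832400, minus strand: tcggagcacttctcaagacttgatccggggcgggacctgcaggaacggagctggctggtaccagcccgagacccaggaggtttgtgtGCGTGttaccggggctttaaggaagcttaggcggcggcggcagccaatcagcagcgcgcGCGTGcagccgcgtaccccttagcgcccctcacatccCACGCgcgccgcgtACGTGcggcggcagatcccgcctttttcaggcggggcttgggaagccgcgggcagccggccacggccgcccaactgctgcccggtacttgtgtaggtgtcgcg
Slc16a1, chr3:104638414-104638713, plus strand: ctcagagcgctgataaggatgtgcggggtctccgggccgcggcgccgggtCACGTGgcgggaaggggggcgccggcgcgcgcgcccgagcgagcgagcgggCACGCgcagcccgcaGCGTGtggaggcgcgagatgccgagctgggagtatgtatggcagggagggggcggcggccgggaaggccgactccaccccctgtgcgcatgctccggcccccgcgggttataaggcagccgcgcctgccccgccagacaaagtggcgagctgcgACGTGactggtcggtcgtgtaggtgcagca
Ldha, chr7:46845554-46845853, plus strand: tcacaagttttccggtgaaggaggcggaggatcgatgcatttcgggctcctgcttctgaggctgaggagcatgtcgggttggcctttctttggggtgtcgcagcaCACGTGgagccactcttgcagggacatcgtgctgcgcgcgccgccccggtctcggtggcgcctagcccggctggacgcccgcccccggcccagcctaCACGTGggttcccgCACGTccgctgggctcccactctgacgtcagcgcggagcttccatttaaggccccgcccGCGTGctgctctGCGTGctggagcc
Pgam1, Pdk3 and Slc16a1 held both cores, Pdk1 held the core with G at -78 and -2 from the start, and Tpi1 held neither in this window. Ldha, whose tissue difference was near 0, held the E-box at -145 and at -48, and Slc16a1 held it at -200. Of the 42 promoters of measured members, 34 (81.0%) held a core, against 43.8% of all 32851 promoters in the table. The list was made of glycolysis genes and known hypoxia targets, so its share describes the list and not these arrays. The 42 promoters belong to 30 genes, and some windows of the same gene overlap. The core with A was in 64.3% of the members' promoters, against 19.6% of all, and the core with G in 57.1%, against 32.4%. The members' promoters also had more G and C, with a median of 64%, against 52.7% for all, and both cores hold CG, so these shares are not compared at equal composition. A match is a run of letters and not a bound site.

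Other genes of these pathways, taken from fixed lists, showed 0 calls over all genes with limma. Of 18 tested isozymes and regulators of glycolysis, both mice had 7 higher and 4 lower in spleen, against 38.5% and 25.1% of all genes. The median was 0.03. At limma's unadjusted p under 0.05, 2 were higher, against 8.12% of all genes. These were Bsg, which encodes basigin, the chaperone that brings MCT1 to the cell surface, at 0.34 ± 0.13, and Pgam5, a mitochondrial phosphatase despite its name, at 0.37 ± 0.12. Bsg had 1704 and 2034 in spleen, against 1433 and 1505 in blood, the same direction as its partner Slc16a1. Gpd1, which reduces dihydroxyacetone phosphate, was lower in both mice at -0.38 ± 0.17, and Eno3, the muscle enolase, at -0.43 ± 0.22.

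Of 17 tested genes of pyruvate entry and the pentose phosphate pathway, 8 were higher and 2 lower in both mice. The shares of all genes were 38.5% and 25.1%. The median of these 17 was 0.07. Dld, the dehydrogenase subunit shared by the pyruvate and oxoglutarate complexes, had 556 and 459 in spleen, against 398 and 345 in blood, a difference of 0.43 ± 0.14. Me1, cytosolic malic enzyme, differed by 0.38 ± 0.12, and Pcx, pyruvate carboxylase, by 0.29 ± 0.12. The adjusted p from limma was 0.348 for Dld and 0.323 for Me1. All 13 genes of the HIF pathway were tested, with 5 higher and 2 lower in both mice, against the same 38.5% and 25.1% of all genes. Their median was 0.06. Vhl, which recruits the ligase that degrades HIF alpha subunits, differed by 0.22 ± 0.13, Cited2, which competes with them for a coactivator, by -0.14 ± 0.11, and Arnt2, a partner of HIF alpha subunits mostly known from neurons, differed by -0.39 ± 0.13.

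Other hypoxia targets went both ways, with a median of 0.05. In both mice 8 of 25 tested were higher and 7 lower, against 38.5% and 25.1% of all genes. At limma's unadjusted p under 0.05, 0 were higher, against 8.12% of all genes, and 3 were lower, against 4.3%. Ddit4, an inhibitor of mTORC1 induced by hypoxia and other stresses, had 110 and 93.0 in spleen, against 165 and 244 in blood. Its difference was -0.89 ± 0.20, with an adjusted p of 0.210. The other two were Tfrc, the transferrin receptor, at -0.33 ± 0.12, and Plin2, a coat protein of lipid droplets, at -0.31 ± 0.13. Higher in both mice was Ak4, a mitochondrial adenylate kinase, at 0.37 ± 0.18. Tfrc also stands on the erythroid list.

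The second comparison set mouse 2 against mouse 1 within each tissue, with 1 array per side and no test. Members that differed between the animals by at least 0.3 the same way in both tissues were Hk1 and Slc16a3, higher in mouse 2 (2 of 28, against 1.28% of all genes), and Ldhb, lower in mouse 2 (1 of 28, against 2.73%). The median over the members was 0.02 in spleen and 0.07 in blood, and that over all tested genes was -0.04 in spleen and 0.02 in blood. Hk1 was higher in mouse 2 by 0.31 in spleen and 0.32 in blood, and Slc16a3 by 0.43 and 0.47. For these 3 genes both arrays of one animal lay on the same side of both arrays of the other.

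Ldhb encodes the lactate dehydrogenase subunit that favours pyruvate. Its brightest probe set had 411 in spleen of mouse 2 and 611 in spleen of mouse 1, and 370 in blood of mouse 2 and 519 in blood of mouse 1. All 4 probe sets were lower in mouse 2 in both tissues. The distance grew from the brightest to the dimmest, from -0.56 to -2.42 in spleen and from -0.47 to -1.54 in blood. The dimmest read 45.1 in spleen of mouse 2 and 310.1 in spleen of mouse 1, and 78.7 in blood of mouse 2 and 260 in blood of mouse 1. Without other animals, a difference between individuals and one between these arrays cannot be told apart, and its size depends on the probe set.

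**Figure D4:**
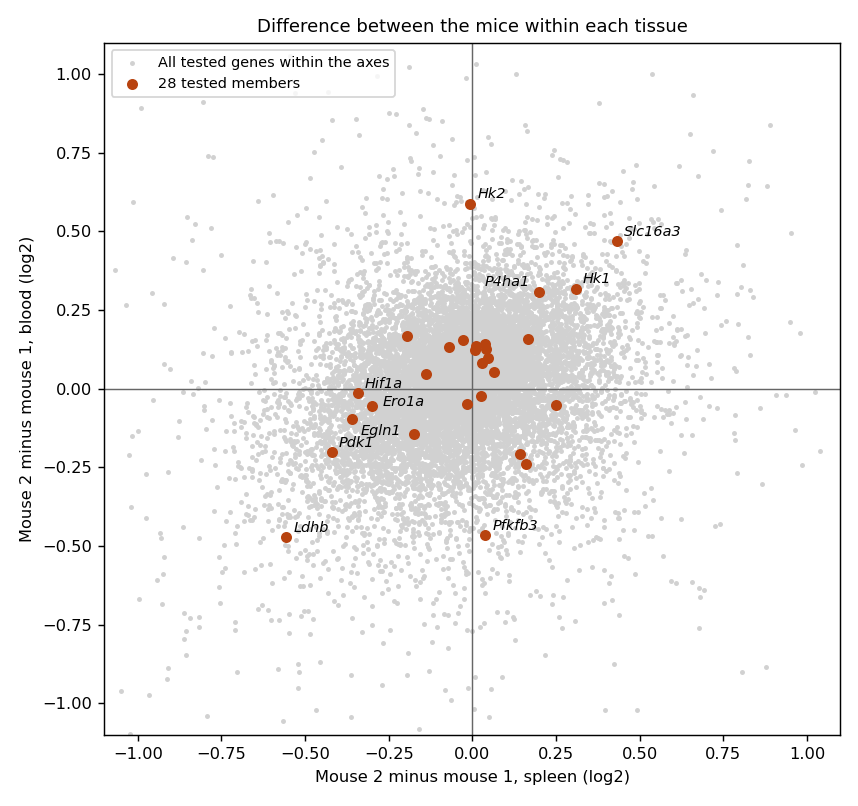
Log2 difference of mouse 2 minus mouse 1 in spleen (horizontal) and in blood (vertical) for the 28 tested members (orange) over all tested genes (grey). Hk1 and Slc16a3 lie at the upper right and Ldhb at the lower left, while Hk2 was at -0.01 in spleen and 0.59 in blood.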

How the data were processed

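The deposited table holds linear probe set intensities, judged from its values; how the authors summarised probes, subtracted background and scaled arrays: not given in the sources used here. Total RNA was extracted with Trizol and labelled by the Affymetrix protocol, per the labels. Of 45101 probe sets, 34958 were paired with 1 gene and 932 with several, and 34754 of the one-gene probe sets were found by Entrez identifier in RefSeq's GRCm38.p6 table, which gave their current symbols. Control probe sets were used for Gapdh alone, which had no other. Values were floored at 0, offset by 16 and logged. The floor is needed because each array had 1.60% to 2.17% of values below 0. Genes with a mean at or above the probe set median (intensity 106) were tested with limma 3.58.1 in R 4.3.3 (lmFit, eBayes, two-sided, tissue as the sole term), with Benjamini-Hochberg adjustment over all tested genes. The test was checked on simulated data. The number of arrays limits the precision.

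Mouse number pairs the arrays, since the labels give 1 animal for both tissues; across genes the mouse difference in blood and that in spleen correlated at r = 0.10. Named members were, by rule, those with an unadjusted p under 0.05, those at least 0.3 from 0 the same way in both mice, and the brightest of each role; others are examples chosen with values seen. From the other lists of glycolysis, pyruvate and hypoxia genes, up to 3 were named by the smaller within-mouse difference. Those with an unadjusted p under 0.05 in limma were added after their values were seen. Genes named from the cell marker lists are examples chosen with values seen, and no mitosis gene is named. The members and lists were chosen with earlier results of these data known.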

Additional observations from a re-analysis of the deposited data

How the results depend on the processing

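There were 12 alternatives. With mouse as a replicate block 0 genes were called, with a smallest adjusted p of 0.173, and the members stayed at 5 higher and 1 lower at an unadjusted p under 0.05. The block changed no call of a member. Genes called over all genes numbered 40 with the stricter brightness filter and 45 with an intensity trend in the prior, which called 1 member, Slc2a3. Leaving out 1 array gave 0 to 20 genes, 0 members called, and 2 to 4 members higher at an unadjusted p under 0.05. At that p, all tested genes split into 943 higher and 500 lower, or 1310 and 354 with centred arrays. Counts at an unadjusted p and counts of members above or below 0 in both mice were added after seeing the data. Centred arrays gave 21 members above and 2 below 0 in both mice, and quantile normalization gave 7 below.

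Of 17 tested members with the same sign in both mice, 4 turned sign under at least 1 alternative: Hk1 (-0.0040) and Ndrg1 (-0.026) with quantile normalization, Ldhb (-0.011) with the mean of all probe sets, and Slc16a3 (0.013) with centred arrays. Leaving out 1 array gave ranges of -0.087 to 0.231 for Hk1, -0.045 to 0.129 for Ndrg1, -0.092 to 0.464 for Ldhb and -0.265 to 0.203 for Slc16a3. Of the 11 with opposite signs in the mice, 10 turned sign under at least 1 alternative. The cause was not tested. The difference of Slc2a3 stayed between -0.75 and -0.55 under the 12 alternatives. Members under the filter, such as Epas1 and Bnip3, are limited by their low signal.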
